A study of Arabidopsis thaliana with 8 samples.

Results

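Transcripts of 7 plastid genes were followed in etiolated Arabidopsis thaliana seedlings without phytochrome A, without phytochrome B, or without either. The genes are psaA, psaB, psaC, psaI and psaJ, which encode subunits of photosystem I, and ycf3 and ycf4, which encode proteins that help to assemble it. They were taken as the probe sets that name 1 of these genes, and no other, in the platform's annotation table. Each gene had exactly 1 such probe set, so the members are 7 of the 22746 probe sets on the array that are not controls, and all 7 passed the filter on dim probe sets. The other plastid-encoded genes with a probe set of their own number 62.

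RNA came from whole seedlings of the Columbia accession on the Affymetrix ATH1 array. There were 2 arrays for each of 4 genotypes, 8 in all: the phyA-211 mutant (written phyA), the phyB-9 mutant (phyB), the double mutant with both alleles (phyAphyB) and the wild type (WT). All seeds were chilled for 5 days at 6 degrees C, given 1 h of white light and kept in darkness for 3 days at 22 degrees C, so the seedlings of every group had seen that light pulse. The number of seedlings pooled per sample is not in the labels, nor is whether both arrays of a genotype had separate cultures. The p-values therefore cover the spread from array to array, and that spread could be technical. The title of 1 phyA array carries no number, and it is called replicate 1.

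Photosystem I is the light-driven enzyme of the thylakoid membrane that passes electrons to ferredoxin. Its large core proteins, the iron-sulfur protein PsaC and a few small membrane subunits are encoded in the plastid genome, while the other subunits and the antenna proteins are encoded in the nucleus and imported. In darkness, flowering plants make no chlorophyll and keep their plastids as etioplasts without working photosystems, although plastid genes are transcribed there. Phytochromes sense red and far-red light, phytochrome A being the abundant one in darkness and phytochrome B the main one in light-grown plants.

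phyA-211 and phyB-9 are loss-of-function alleles, and each is a single mutant line here. Some stocks of phyB-9 are known to carry another mutation, in the gene VENOSA4, that affects chloroplasts. The labels do not say whether these seedlings carried it, and this was not tested. PHYA and PHYB are not named by any probe set in the annotation table, which left the genotypes without a check on the mutated genes.

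The deposited intensities had a 2% trimmed mean of 2500.2 to 2500.3 on every array. A pseudocount of 39 was used below, and the share of probe sets above it was 87.0% to 92.7%. The arrays stood apart in a sign of RNA quality. The 3'/5' ratio of the GAPDH control transcript, which is high where RNA is degraded, was 7.87 on phyB replicate 2 and 16.7 on WT replicate 1, against 1.31 to 2.31 on the other 6 arrays. The actin ratio was 46.7 on WT replicate 1 and 3.64 to 10.8 on the others. Many of the main values that move without WT replicate 1 or phyB replicate 2 are given with and without that array.

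No photosystem I gene passed the test in any comparison, and the order of the genotypes rested in part on 1 array. WT had the lowest mean of the 4 genotypes for 6 of the 7 members, ycf4 being the exception, against 29.3% of all probe sets tested and 44 of the 62 other plastid-encoded genes. Without phyB replicate 2 the count was 3 of 7, psaA, psaB and psaJ, against 30.7% of all probe sets and 30 of the 62 other plastid-encoded genes. Without WT replicate 1 it was 5 of 7, against 28.6% of all probe sets and 36 of the 62 other plastid-encoded genes. In log2 units, the median change of the 7 members against WT was 1.09 in phyA, 0.85 in phyB and 0.42 in phyAphyB, beside medians over all probe sets of -0.01 in phyA, -0.06 in phyB and 0.04 in phyAphyB. Without WT replicate 1 the member medians were 0.84 in phyA, 0.63 in phyB and 0.22 in phyAphyB, and without phyB replicate 2 the median in phyB was -0.22. In whole seedlings, fewer cells of a type and less RNA per cell cannot be told apart. The spread between the 2 arrays of a mutant was often as wide as the change itself, as the plot of intensities by array shows.

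**Figure D1:**
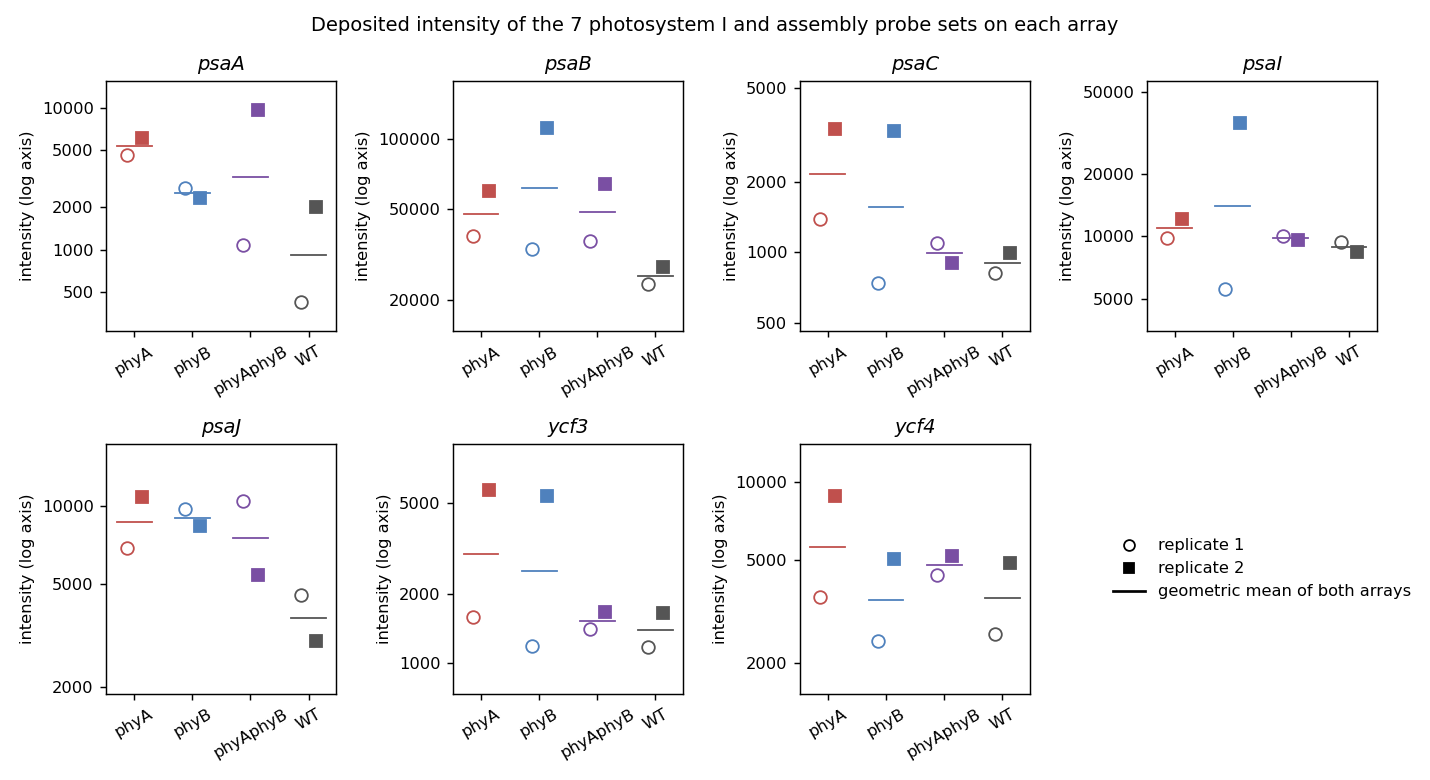
Deposited intensity (linear units, log axis) of each of the 7 probe sets on the 8 arrays, with open circles for replicate 1, filled squares for replicate 2 and a line at the geometric mean of both arrays of a genotype. psaB and psaJ lay above both WT arrays on all 6 mutant arrays, whereas psaC, psaI and ycf3 had their 2 highest values on phyA replicate 2 and phyB replicate 2.

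Genotypes were compared over all 13648 probe sets that passed the filter, on the log2(intensity + 39) scale, and those with an adjusted p under 0.05 by limma were called. In phyA against WT, 0 of the 7 members were called, where 0.0147% of all probe sets were. The change was positive for 7 of 7 members, where it was for 49% of all, and 2 members, psaA and psaJ, had an unadjusted p under 0.05, where 6.37% of all did and 4.05% did with a positive change. In phyB against WT, 0 members were called, where 0% of all probe sets were. The change was positive for 6 of 7 members, where it was for 44.5% of all, and psaB and psaJ had an unadjusted p under 0.05, where 5.93% of all did and 3.9% did with a positive change. In phyAphyB against WT, 0 members were called, where 0.022% of all probe sets were. The change was positive for 7 of 7 members, where it was for 53.3% of all, and psaJ had an unadjusted p under 0.05, where 3.57% of all did and 2.56% did with a positive change. Among the 62 other plastid-encoded genes, the change against WT was positive for 57 in phyA, 59 in phyB and 49 in phyAphyB. The intervals below are 95% confidence intervals, not adjusted for the number of probe sets, and they are wide: a change that misses the test is not shown to be absent.

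psaA and psaB encode the paired large proteins of the reaction centre, which together hold the chlorophylls and cofactors that separate charge. The intensity of psaA was 4678 and 6078 in phyA, 2722 and 2295 in phyB, 1076 and 9646 in phyAphyB, and 424 and 2004 in WT. Both arrays of phyA and of phyB lay above both WT arrays, while phyAphyB held the highest value of all and 1 array below the higher WT array. The psaA change was 2.47 in phyA (SE 0.91, interval 0.43 to 4.50, limma adjusted p = 0.76), or 5.52-fold, from log2 levels of 12.39 ± 0.27 in phyA and 9.93 ± 1.51 in WT (SD, n = 2). It was 1.38 in phyB (SE 0.91, interval -0.65 to 3.42, adjusted p = 0.88) and 1.76 in phyAphyB (SE 0.91, interval -0.28 to 3.79, adjusted p = 0.998). The low WT value came from WT replicate 1, the array with the highest GAPDH ratio. Without that array the psaA change was 1.39 in phyA, 0.31 in phyB and 0.69 in phyAphyB. Without WT replicate 2, which leaves WT replicate 1 as the only WT array, the psaA change was 3.54 in phyA. Without phyAphyB replicate 2 the change in phyAphyB was 0.20.

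psaB varied less among the arrays, with a 4.77-fold range against 22.8-fold for psaA. Its intensity was 38036 and 59428 in phyA, 33539 and 111910 in phyB, 36314 and 64027 in phyAphyB, and 23465 and 27802 in WT. All 6 mutant arrays lay above both WT arrays. The change was 0.90 in phyA (SE 0.54, interval -0.32 to 2.11, adjusted p = 0.79), 1.26 in phyB (SE 0.54, interval 0.05 to 2.47, adjusted p = 0.83) and 0.92 in phyAphyB (SE 0.54, interval -0.30 to 2.13, adjusted p = 0.998). The highest value belonged to phyB replicate 2, and without that array the psaB change in phyB was 0.39.

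psaC encodes the small protein that carries the terminal iron-sulfur clusters and hands electrons to ferredoxin. Its intensity was 1386 and 3340 in phyA, 740 and 3274 in phyB, 1100 and 906 in phyAphyB, and 814 and 996 in WT. Both phyA arrays lay above WT, while phyB held the lowest value of the 8 arrays and the second highest. The change was 1.22 in phyA (SE 0.65, interval -0.22 to 2.67, adjusted p = 0.76), 0.77 in phyB (SE 0.65, interval -0.67 to 2.22, adjusted p = 0.91) and 0.14 in phyAphyB (SE 0.65, interval -1.31 to 1.59, adjusted p = 0.999). Without phyB replicate 2 the psaC change in phyB was -0.27.

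psaI and psaJ encode small membrane-spanning subunits at the edge of the core, PsaI next to PsaL and PsaJ next to PsaF. The intensity of psaI was 9887 and 12176 in phyA, 5562 and 35364 in phyB, 10039 and 9661 in phyAphyB, and 9428 and 8449 in WT. Both phyB values lay outside the range of the other 6 arrays, 1 on each side, and differed 6.36-fold from each other. The psaI change was 0.30 in phyA (SE 0.67, interval -1.20 to 1.79, adjusted p = 0.96), 0.65 in phyB (SE 0.67, interval -0.84 to 2.15, adjusted p = 0.93) and 0.14 in phyAphyB (SE 0.67, interval -1.35 to 1.64, adjusted p = 0.999). Without phyB replicate 2 the change in phyB was -0.68.

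The intensity of psaJ was 6885 and 10883 in phyA, 9711 and 8422 in phyB, 10426 and 5446 in phyAphyB, and 4529 and 3019 in WT. As for psaB, all 6 mutant arrays lay above both WT arrays. Those are 2 of the 7 members, against 6.02% of all probe sets tested and 8 of the 62 other plastid-encoded genes. The psaJ change was 1.22 in phyA (SE 0.41, interval 0.29 to 2.14, adjusted p = 0.76), 1.28 in phyB (SE 0.41, interval 0.36 to 2.21, adjusted p = 0.74) and 1.02 in phyAphyB (SE 0.41, interval 0.09 to 1.94, adjusted p = 0.998). The fitted change stood above 2-fold in all 3 mutants for psaJ and psaA, and psaJ had the smaller error. Leaving out any 1 array kept the change between 0.89 and 1.55 in phyA, 0.99 and 1.57 in phyB, and 0.55 and 1.49 in phyAphyB. Without WT replicate 1 and phyB replicate 2 it was 1.51 in phyA, 1.67 in phyB and 1.31 in phyAphyB.

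**Figure D2:**
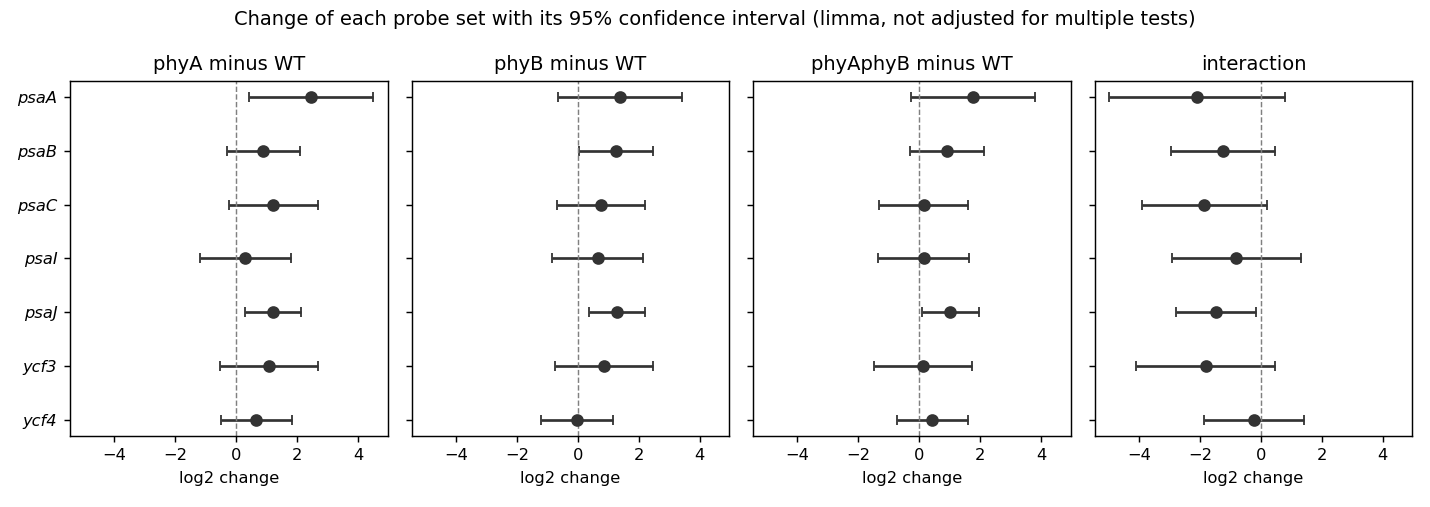
Log2 change of each of the 7 probe sets in phyA, phyB and phyAphyB against WT, and the interaction, with points for the estimate and bars for the 95% confidence interval. The intervals of psaJ lay above 0 in all 3 mutants and below 0 for the interaction, before adjustment for the number of probe sets.

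ycf3 and ycf4 encode assembly proteins that are not part of the finished complex. In tobacco and the alga Chlamydomonas, Ycf3 is required for photosystem I to accumulate, while Ycf4 is required in Chlamydomonas and promotes assembly in tobacco. The intensity of ycf3 was 1574 and 5669 in phyA, 1182 and 5374 in phyB, 1399 and 1661 in phyAphyB, and 1165 and 1652 in WT. It was high on 1 array of each single mutant, and the other 6 arrays lay between 1165 and 1661. The ycf3 change was 1.09 in phyA (SE 0.72, interval -0.52 to 2.70, adjusted p = 0.81), 0.85 in phyB (SE 0.72, interval -0.76 to 2.46, adjusted p = 0.91) and 0.13 in phyAphyB (SE 0.72, interval -1.48 to 1.74, adjusted p = 0.999). Without phyA replicate 2 it was 0.18 in phyA, and without phyB replicate 2 it was -0.22 in phyB.

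The intensity of ycf4 was 3606 and 8821 in phyA, 2420 and 5029 in phyB, 4376 and 5203 in phyAphyB, and 2590 and 4858 in WT. Each mutant overlapped WT, and the change in phyB, the 1 negative value among the members against WT, was 0.033 after quantile normalization. The ycf4 change was 0.66 in phyA (SE 0.52, interval -0.50 to 1.83, adjusted p = 0.84), -0.02 in phyB (SE 0.52, interval -1.19 to 1.14, adjusted p = 0.998) and 0.42 in phyAphyB (SE 0.52, interval -0.74 to 1.59, adjusted p = 0.998). Without phyA replicate 2 the change in phyA was 0.02, and without WT replicate 1 it was 0.21.

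Set side by side, both arrays of the mutant lay above both WT arrays for 5 members in phyA, 3 in phyB and 3 in phyAphyB, against 18%, 14.7% and 17% of all probe sets tested. The 5 in phyA were psaA, psaB, psaC, psaI and psaJ, the 5 structural subunits. The 3 in phyB were psaA, psaB and psaJ, and the 3 in phyAphyB were psaB, psaI and psaJ. Both mutant arrays lay below both WT arrays for 0 members in each mutant, against 17.6% of all probe sets in phyA, 18.2% in phyB and 13.3% in phyAphyB. Among the 62 other plastid-encoded genes, both mutant arrays lay above both WT arrays for 21 in phyA, 17 in phyB and 20 in phyAphyB. Both lay below for 1 in phyA, 0 in phyB and 1 in phyAphyB. The 3 comparisons share the WT arrays.

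The members varied among arrays in different ways. phyA replicate 2 was the highest array for psaC, psaJ, ycf3 and ycf4, phyB replicate 2 for psaB and psaI, and phyAphyB replicate 2 for psaA. The share of all probe sets tested with their highest value on phyA replicate 2 was 14.6%, and on phyB replicate 2 it was 14.7%. Of the 62 other plastid-encoded genes, 17 were highest on phyA replicate 2 and 34 on phyB replicate 2. WT replicate 1 was the lowest array for psaA, psaB and ycf3, which are 3 of the 7 members, against 21.6% of all probe sets tested and 25 of the 62 other plastid-encoded genes. A mutant array, phyB replicate 1, was the lowest for as many members, psaC, psaI and ycf4, against 11.6% of all probe sets and 17 of the 62. phyA replicate 2 and phyB replicate 2 were the 2 highest arrays for 3 of the 7 members, psaC, psaI and ycf3, against 4.31% of all probe sets tested and 33 of the 62 other plastid-encoded genes. Over the 8 arrays, the correlation of log2 levels between 2 members ran from 0.03 for psaA and psaI to 0.97 for psaC and ycf3, as a description of 21 pairs measured on the same arrays.

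The 2 arrays of phyB differed most. The median gap between the 2 arrays of a genotype over the 7 members, in log2 units, was 0.66 in phyA, 1.74 in phyB, 0.27 in phyAphyB and 0.49 in WT. Over all probe sets tested it was 0.45 in phyA, 0.44 in phyB, 0.45 in phyAphyB and 0.49 in WT. The median difference of the members from the mean of both WT arrays was 0.57 and 1.55 on the phyA arrays, -0.22 and 1.82 on the phyB arrays, 0.28 and 0.55 on the phyAphyB arrays, and -0.14 and 0.14 on the WT arrays. The 62 other plastid-encoded genes were also split on the phyB arrays, at 0.04 and 1.51. They stood at 0.12 and 1.17 on the phyA arrays and 0.41 and 0.18 on the phyAphyB arrays. The array with 1.82, phyB replicate 2, had the GAPDH ratio of 7.87, while that with 1.55, phyA replicate 2, had 1.57. The part of RNA quality in these levels was not tested. With phyA replicate 2 and phyB replicate 2 both left out, the median change against WT was 0.57 in phyA and -0.22 in phyB.

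The double mutant was also compared with each single mutant, which asks what the loss of the other phytochrome adds. Against phyA, the median change of the members was -0.24 in phyAphyB, with 1 of 7 positive, where 55.6% of all probe sets were. 0 members were called by limma, as were 0% of all probe sets, and 0 had an unadjusted p under 0.05, where 0.784% of all did. Against phyB the median was -0.35, with 2 of 7 positive, where 59.3% of all probe sets were. 0 members were called, where 0.0147% of all probe sets were, and 0 had an unadjusted p under 0.05, where 1.08% of all did. psaC had the most negative change against phyA, -1.08 (SE 0.65, interval -2.53 to 0.37), and ycf3 against phyB, -0.72 (SE 0.72, interval -2.33 to 0.89). Without phyB replicate 2 the median against phyB was 0.41.

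The interaction sets the change of phyAphyB against the 2 single-mutant changes added together. It was negative for 7 of 7 members, with a median of -1.48 beside 0.12 over all probe sets, of which 58% were positive. Other organelle genes had negative values too: the median was -1.09 for the 62 other plastid-encoded genes, 4 of them positive, and -1.52 for 15 mitochondrion-encoded genes, 0 of them positive. 0 members were called by limma, as were 0% of all probe sets, and 1 had an unadjusted p under 0.05, where 3.3% of all did. That member was psaJ, at -1.48 (SE 0.59, interval -2.79 to -0.17, adjusted p = 0.996), with changes of 1.22 in phyA, 1.28 in phyB and 1.02 in phyAphyB. psaA stood at -2.09 (SE 1.29), psaC at -1.85 (SE 0.92), ycf3 at -1.81 (SE 1.02), psaB at -1.24 (SE 0.77), psaI at -0.81 (SE 0.95) and ycf4 at -0.22 (SE 0.74). Without phyB replicate 2 the median interaction was -0.73. The members then stood at -2.21 (psaA), -1.58 (psaJ), -0.81 (psaC), -0.73 (ycf3), -0.37 (psaB), 0.30 (ycf4) and 0.52 (psaI). Without WT replicate 1 the median interaction was -1.12, with psaA at -1.02 and psaJ at -1.77. With phyA replicate 2 and phyB replicate 2 left out, the median interaction of the members was -0.0505. A moderated F test over the 4 genotypes called 0 members, where 0.0147% of all probe sets were called, and 1 member, psaJ, had an unadjusted p under 0.05, where 2.72% of all did (unadjusted p = 0.038, limma adjusted p = 0.999).

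Plastid genes are transcribed in groups, and the members belong to different ones. psaA and psaB share a transcript with rps14, psaI and ycf4 with accD, cemA and petA, psaJ with rpl33 and rps18, and psaC with the ndhH, ndhA, ndhI, ndhG, ndhE and ndhD genes of the NDH complex, while ycf3 stands on its own. All 12 of these neighbours had a probe set and passed the filter. None was called in any comparison (smallest limma adjusted p = 0.74, for ndhD in phyB). In phyA, 12 of 12 had a positive change, from 0.07 to 1.39, in phyB 12 of 12, from 0.04 to 1.79, and in phyAphyB 8 of 12, from -0.27 to 1.23.

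**Figure D3:**
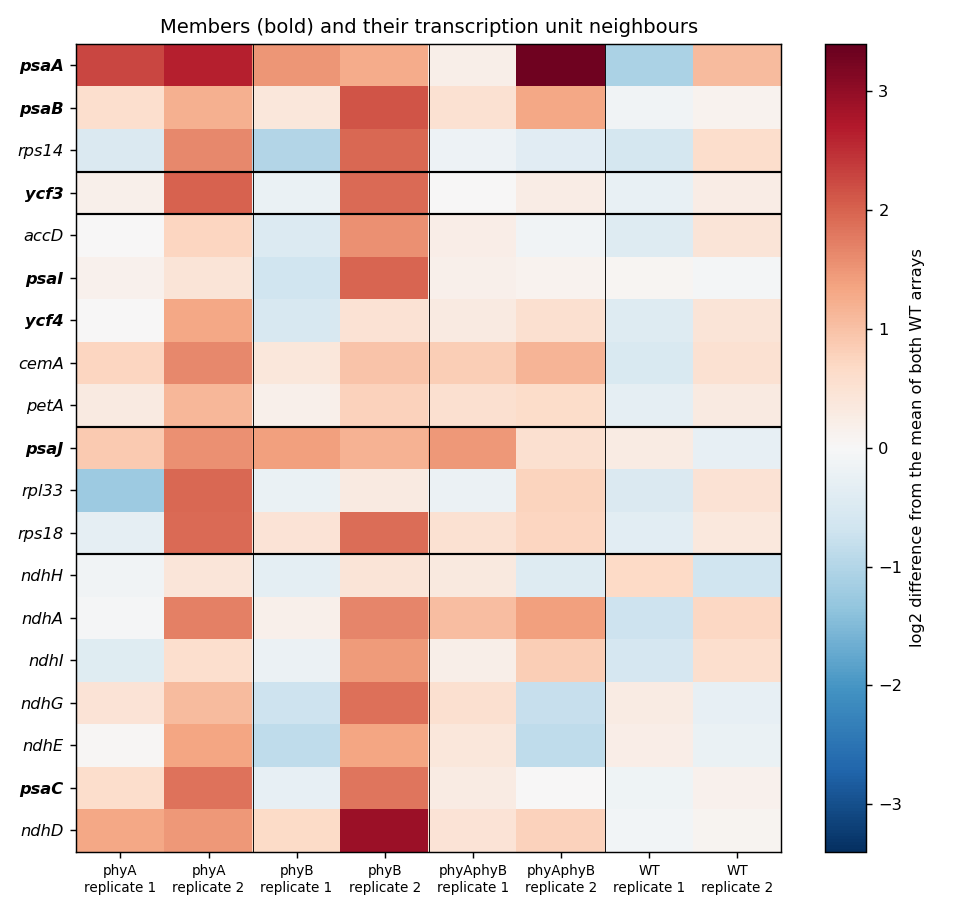
Log2 difference of each probe set (rows) from the mean of both WT arrays on each of the 8 arrays (columns), for the 7 members in bold and 12 neighbours, with black lines between transcription units. On phyAphyB replicate 2, psaA stood 3.32 above the WT mean and rps14, in the same unit, did not stand above it.

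Neighbours did not follow the members on every array. rps14, a protein of the small ribosomal subunit, had intensities of 443 and 2065 in phyA, 302 and 2587 in phyB, 572 and 486 in phyAphyB, and 412 and 997 in WT. On phyAphyB replicate 2, where psaA was at its highest and psaB at its second highest, rps14 lay between the WT arrays. rpl33, a protein of the large ribosomal subunit, had intensities of 1559 and 14474 in phyA, 3160 and 4635 in phyB, 3219 and 6282 in phyAphyB, and 2632 and 5275 in WT, so each mutant overlapped WT where psaJ did not. ndhE, the neighbour of psaC, had 5358 and 13244 in phyA, 2848 and 13224 in phyB, 6745 and 2836 in phyAphyB, and 6062 and 4408 in WT. Like psaC, it was highest on phyA replicate 2 and phyB replicate 2. cemA, which encodes an envelope protein, had a change of 1.18 in phyA (SE 0.45), 0.68 in phyB (SE 0.45) and 0.99 in phyAphyB (SE 0.45), while accD, a subunit of acetyl-CoA carboxylase, had 0.37 in phyA, 0.54 in phyB and 0.06 in phyAphyB.

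The probe sets most like each member were taken by the correlation of log2 levels over the 8 arrays, among 7348 other probe sets that name a single gene. psaC was most like AT1G14450 (r = 0.98), ycf3 (0.97) and psbB (0.97), which encodes a core antenna protein of photosystem II. ycf3 was most like psaC (0.97), ndhF (0.97), a subunit of the NDH complex, and rps19 (0.97), a ribosomal protein. The other 5 members had no plastid-encoded gene among their closest 3. Those were AT3G02200, AT5G58020 and AT1G27090 for psaA (0.96 to 0.98), AT2G07751, AT4G35750 and AT1G69910 for psaB (0.94 to 0.95), YAB5, AT5G04760 and ASPGB1 for psaI (0.96 to 0.97), AT1G02460, BUG22 and AT1G62730 for psaJ (0.95 to 0.98), and AT5G66780, AT3G19900 and AT3G60980 for ycf4 (0.97 to 0.98). The mean profile of the members was most like AT1G72800 (0.97), AT1G60080 (0.96) and AT5G54530 (0.95). With 8 arrays and this many candidates, correlations of this size are a ranking and carry no test.

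Members also differed in how many plastid-encoded genes were among the 50 probe sets most like them. There were 18 for psaC, 15 for ycf3, 10 for psaI and 7 for psaB, but 2 for ycf4 and 1 each for psaA and psaJ. For the 62 other plastid-encoded genes the median was 5, with a range of 0 to 18, and plastid-encoded genes made up 0.94% of the candidates.

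Other plastid-encoded complexes gave the background for these levels. The 62 other plastid-encoded genes had a median change of 0.67 in phyA, 0.68 in phyB and 0.27 in phyAphyB, and 0 were called in each. The 15 genes of photosystem II had a median of 1.19 in phyA, 0.95 in phyB and 0.92 in phyAphyB. The other photosynthetic complexes stood lower in phyA: the median was 0.62 for the 7 genes of the cytochrome complex with ccsA, 0.58 for the 6 of ATP synthase and 0.43 for the 10 of the NDH complex. In phyB these medians were 0.85, 0.84 and 0.60, and in phyAphyB 0.20, 0.38 and 0.10. Among the genes of plastid gene expression, the 5 of the RNA polymerase with matK had a median of 0.69 in phyA, 1.17 in phyB and 0.19 in phyAphyB. The 8 genes of the small ribosomal subunit had 0.57 in phyA, 0.65 in phyB and 0.23 in phyAphyB, and the 7 of the large subunit 0.33 in phyA, 0.04 in phyB and 0.27 in phyAphyB. The 4 metabolic genes (rbcL, accD, clpP and cemA) had 1.00 in phyA, 0.61 in phyB and 0.46 in phyAphyB. The photosystem I members thus had the second highest median in phyA, the fourth highest in phyB and the third highest in phyAphyB among these 9 groups, without a test of the differences.

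**Figure D4:**
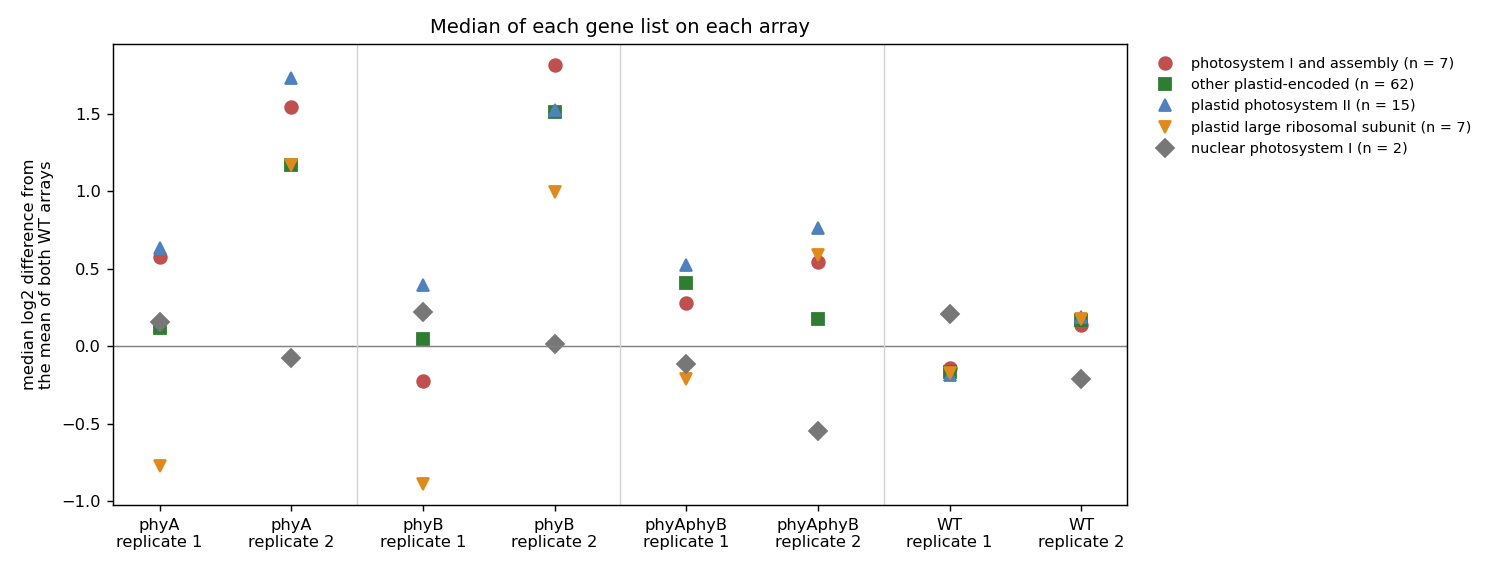
Median log2 difference from the mean of both WT arrays on each of the 8 arrays, for the 7 members and 4 comparison lists, with 1 symbol per list. The members stood at 1.55 on phyA replicate 2 and 1.82 on phyB replicate 2, where the other plastid-encoded genes stood at 1.17 and 1.51 and the nuclear photosystem I genes at -0.07 and 0.01.

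Few nuclear photosystem I genes could be read by name. The annotation table gave a probe set of their own to 2 of the 13 listed subunits. It named 0 of the 6 antenna genes and 1 of the 7 assembly factors in this way. As 8730 of the 22746 probe sets were not listed there, the other genes may still be on the array. PSAE-1, a stromal subunit near the ferredoxin site, had intensities of 27293 and 18886 in phyA, 26469 and 20765 in phyB, 20838 and 15528 in phyAphyB, and 21369 and 15414 in WT. Its change was 0.32 in phyA, 0.37 in phyB and -0.01 in phyAphyB (SE 0.35 each). PSAN, a lumenal subunit, had a change of -0.24 in phyA, -0.14 in phyB and -0.65 in phyAphyB (SE 0.32 each), and HCF101, which helps to deliver iron-sulfur clusters, -0.07 in phyA, -0.20 in phyB and 0.25 in phyAphyB (SE 0.36 each). None of the 3 was called, with limma adjusted p between 0.89 and 0.9995. Of the 12 nuclear factors listed for plastid transcription, 0 were named as the single gene of a probe set.

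Markers that could show another mix of tissue were scarce too. Of 11 markers of ungerminated seeds 1 was named as the single gene of a probe set, the seed storage protein gene PAP85. Of 11 markers of green tissue 0 were. The other markers may be among the probe sets that the annotation table does not list. PAP85 had intensities of 4426 and 8835 in phyA, 12256 and 24718 in phyB, 14111 and 20201 in phyAphyB, and 4743 and 5802 in WT. It was not called in any comparison (limma adjusted p = 0.70 in phyB, at a change of 1.72). Its highest array was phyB replicate 2, which was also the highest for psaB and psaI. PAP85 also lay above both WT arrays on phyB replicate 1, where psaC, psaI and ycf4 were at their lowest. The part of seed content in the levels of the members was not tested.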

How the data were processed

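Each array's deposited values are linear intensities in whole numbers, scaled to 1 common trimmed mean before deposit. The sources used here name neither the summarising software nor whether labelling was primed on poly(A) tails, which most plastid transcripts lack. Intensities were used as deposited. Of 22810 probe sets 64 controls were left out. To each deposited intensity 39 was added (the 10th percentile over the array set) and log2 was taken, so small values show too small a change. Probe sets in the lowest 40% by mean log2 were dropped. All 8 arrays entered 1 model of 4 genotype means in limma 3.58.1 under R 4.3.3 (lmFit and contrasts.fit, then eBayes with a trend on intensity). It had 4 residual degrees of freedom, and tests were two-sided, with Benjamini-Hochberg adjustment over 13648 probe sets. The fit was tested on simulated data. Precision is limited by having 2 arrays a genotype.

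Every member is named, called or not. The probe sets most like a member are the 3 with the highest Pearson correlation. Genes were named through the platform's annotation table, with TAIR10.1 gene symbols from RefSeq. Coordinates are left out, as the build behind the probe sets is not named. Of the 22746 probe sets, 13513 named 1 gene, 503 several, and 8730 were not listed. The members and lists were chosen with earlier results of these data known. Alternatives changed the pseudocount, filter, normalization, trend and arrays used.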

Additional observations from a re-analysis of the deposited data

How the results depend on the processing

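No member was called under any alternative: all 127 counts of called members, over 6 contrasts and the F test, were 0. The member nearest to a call was psaA in phyA without WT replicate 2, at a change of 3.54. WT replicate 1, with the highest GAPDH ratio, was the only WT array in that fit. Of 511 alternative values of the members' changes against WT and of the interaction, 486 kept their sign. The 25 that did not lay in psaC, psaI, ycf3 and ycf4. Some settings cannot change an estimate: another filter or trend, a replicate block, only the arrays compared, or 1 array outside the comparison left out. They kept the sign by design, so the count of 486 says little about robustness. Without 1 array, the changes in phyB ran from -0.27 to 1.82 for psaC, from -0.68 to 1.98 for psaI, from -0.22 to 1.92 for ycf3 and from -0.55 to 0.50 for ycf4. Those in phyAphyB ran from -0.11 to 0.38 for ycf3 and from -0.026 to 0.87 for ycf4, and the interaction from -2.14 to 0.52 for psaI and from -0.86 to 0.42 for ycf4. With WT replicate 1 and phyB replicate 2 both left out, the changes in phyB were -0.41 (psaC), -0.60 (psaI) and -0.47 (ycf3), those in phyAphyB -0.11 (ycf3) and -0.026 (ycf4), and the interaction 0.44 (psaI) and 0.75 (ycf4). With phyA replicate 2 and phyB replicate 2 both left out, the changes in phyB were -0.27 (psaC), -0.68 (psaI) and -0.22 (ycf3), and the interaction 0.67 (psaI), 0.18 (ycf3) and 0.95 (ycf4). Quantile normalization gave ycf4 in phyB 0.033. The cause was not tested.

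The count of members with their lowest mean in WT, recomputed by a choice made after seeing the data, ran from 3 (without phyB replicate 2) to 7 of 7 without 1 array. It was 3 without WT replicate 1 and phyB replicate 2, and 3 without phyA replicate 2 and phyB replicate 2. Many of the 110 alternatives cannot move the members' median change, so the 103 within the replicate spread of 0.81 say little about robustness. Without 1 array the median ran from -0.22 to 1.82 in phyB and from -1.21 to 0.41 in phyAphyB against phyB. With WT replicate 1 and phyB replicate 2 left out it was -0.41 in phyB and -0.49 for the interaction, and with phyA replicate 2 and phyB replicate 2 left out it was -0.22 in phyB and -0.0505 for the interaction. Without WT replicate 2, more of all probe sets were called in each mutant against WT, for the interaction and by the F test. Those calls are differences from WT replicate 1 alone (GAPDH ratio 16.7), with no WT spread. Other settings gave 0 to 5 calls in each comparison.

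The replicate numbers were used as a block in the 6 arrays of WT, phyB and phyAphyB, whose titles all carry one. With the replicate block the medians were 0.85 in phyB and 0.42 in phyAphyB against WT and -0.35 in phyAphyB against phyB, and 0 members were called. Deviations of same-numbered arrays correlated at -0.06 for WT and phyB, 0.64 for WT and phyAphyB and 0.15 for phyB and phyAphyB. With the unnumbered phyA array called replicate 1, they correlated at 0.42 for phyA and WT, 0.41 for phyA and phyB and 0.60 for phyA and phyAphyB. The value for WT and phyB was below 0, and the others were above it. Whether the numbers pair the samples was not settled, and the main fit had no replicate block. Replicate 2 was the higher array for 7 of the 7 members in phyA, 5 in phyB, 4 in phyAphyB and 5 in WT. No paired analysis was run with phyA, as the title of 1 of its arrays carries no number to pair it by.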

Other observations

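Mitochondrion-encoded genes, the other organelle genome read by the array, stood high on phyB replicate 2 as well. Over 23 probe sets (nad, cox and ccb genes, matR and orfX), the median log2 difference from the mean of both WT arrays was 0.18 and 0.63 on the phyA arrays, 0.08 and 1.69 on the phyB arrays, -0.63 and -0.42 on the phyAphyB arrays, and 0.08 and -0.08 on the WT arrays. On the phyAphyB arrays the photosystem I members stood at 0.28 and 0.55. Of the 23, 15 passed the filter, and 0 were called in any comparison. Their median change was 0.57 in phyA, 0.79 in phyB and -0.0048 in phyAphyB against WT.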
